A study of Bos taurus with 8 samples.

Results

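Genes of the small leucine-rich proteoglycan (SLRP) family were followed through bovine muscle and its cell cultures, namely DCN (decorin), BGN (biglycan), ASPN (asporin), LUM (lumican), FMOD (fibromodulin), PRELP, OGN (osteoglycin) and PODN (podocan). They were taken by their symbols from the gene list of the count tables, where 8 of 21880 features carried these names and each name stood for 1 Ensembl gene. SLRPs are secreted proteins of the connective tissue matrix, built from leucine-rich repeats and, in several members, carrying chondroitin, dermatan or keratan sulfate chains. They bind collagen and help to set the width and spacing of its fibrils, and some of them also bind growth factors of the TGF-beta family or cell surface receptors. In skeletal muscle they belong to the matrix laid down by connective tissue cells, of which the fibro-adipogenic progenitors (FAPs) are the main resident type. DCN, BGN and ASPN form class I of the family, LUM, FMOD and PRELP class II and OGN class III, whereas PODN belongs to a non-canonical class. In RefSeq's gene table of the ARS-UCD2.0 assembly LUM and DCN were neighbours in a row with EPYC and KERA, OGN and ASPN stood in a row with OMD and ECM2, and FMOD lay next to PRELP.

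Cells were taken from the semitendinosus muscle of 10 Belgian Blue cattle, 5 calves (donors 2, 4, 5, 7 and 10) and 5 adults (donors 1, 3, 6, 8 and 9), pooled over donors and sequenced as 1 Chromium 3′ library at each of 5 timepoints: directly after isolation (Muscle), after growth for 72 h without serum on fibronectin (P0), and at passages 2, 5 and 8 (P2, P5 and P8). From P2 onwards donors 1, 2 and 9 were cultured unsorted on fibronectin, donors 5, 6 and 10 as sorted satellite cells (SCs, the muscle stem cells) on laminin-521 and donors 4, 7 and 8 as sorted FAPs on collagen I, so donor, sort and coating cannot be told apart; donor 3 was sequenced in muscle alone. Donors 6, 8 and 10 were male and the others female, so sex was not spread evenly over the kinds of culture or the age classes. Each timepoint was 1 library, so time and library cannot be told apart either, and the p-values below measure the spread between donors. Cell types are the authors' labels, which were assigned from clusters of the same RNA values; the P0 records name SCs, FAPs and unsorted cells together, whereas the methods describe unsorted cells, and they were treated as unsorted here.

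The libraries held 4395, 9591, 8966, 10405 and 2772 cells with a median of 4184, 19375, 27240, 21620 and 18340 unique molecular identifiers (UMIs, counted RNA molecules) per cell, from Muscle to P8. Among 36129 cells 129 barcodes occurred in more than 1 library. All defining markers of FAPs (PDGFRA, DPT, MFAP5, PDGFRB and SCARA5) were detected in FAPs at every timepoint, with 4 or 5 of 5 highest in that type. Of the SC markers (MYF5, PAX7, CHRDL2, NCAM1 and ITGA7) 3 of 5 were highest in SCs at P0 and 4 or 5 of 5 at the other times, with CHRDL2 at 0 in SCs at P2 and P8. Levels are UMIs per 1000000 UMIs (CPM) of all cells of a type from 1 donor summed, for donors with at least 10 such cells, and ± is the SD over donors. UMIs of a 3′ library count transcripts whatever their length. How well each gene was captured was not checked, so orders between genes are descriptions. For comparisons the sums were fitted in edgeR (quasi-likelihood F test), with p adjusted over all genes tested by Benjamini-Hochberg, and a gene was called higher or lower at an adjusted p below 0.05 with an absolute log2 fold change (log2FC) above 1. Donor ranges that were apart were not counted over all genes, so such statements describe single genes.

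Donor means were set side by side for the 7 types with at least 10 cells in 2 or more donors in muscle, which leaves out tenocytes, glial cells, myocytes and neutrophils. Among these types, 7 of the 8 genes had their highest mean level in FAPs and ASPN had its highest in smooth muscle and mesenchymal cells (SMMCs). DCN, whose protein binds collagen I and TGF-beta, ranked first among the 14917 genes with a UMI in muscle FAPs, at 19369 ± 1645 CPM in 10 donors (lowest 17141, median 19418, highest 22125). Every donor's FAPs lay above every donor's cells of the other 6 types for DCN, LUM and PODN, whereas for BGN, OGN, PRELP and FMOD the FAP range overlapped that of the next type. Since labels and levels came from the same values, these orders are descriptions.

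The other 7 genes lay far below DCN. LUM, the keratan sulfate SLRP that regulates fibril assembly, stood at 2136 ± 930 CPM (1020, median 1902, highest 4523), and OGN, a class III member found in bone, vessel and muscle matrix, at 1084 ± 276 CPM. ASPN, which can bind collagen and calcium, reached 490 ± 297, PODN 451 ± 55.3, BGN 398 ± 79.2, PRELP 390 ± 90.7 and FMOD 85.2 ± 39.1 CPM. The donors were closest for DCN, with a coefficient of variation of 8.50%, and for PODN, with 12.3%; they were furthest apart for ASPN, with 60.7%, FMOD, with 45.8%, and LUM, with 43.6%. Genes within 2-fold of the level of ASPN had a median coefficient of variation of 17.7%, and those within 2-fold of FMOD and LUM had 22.5% and 13.0%. At the level of single cells thinned to 2000 UMIs, a muscle FAP held UMIs of 4.48 of the 8 genes on average, and 19.9% of FAPs held 6 or more.

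**Figure D1:**
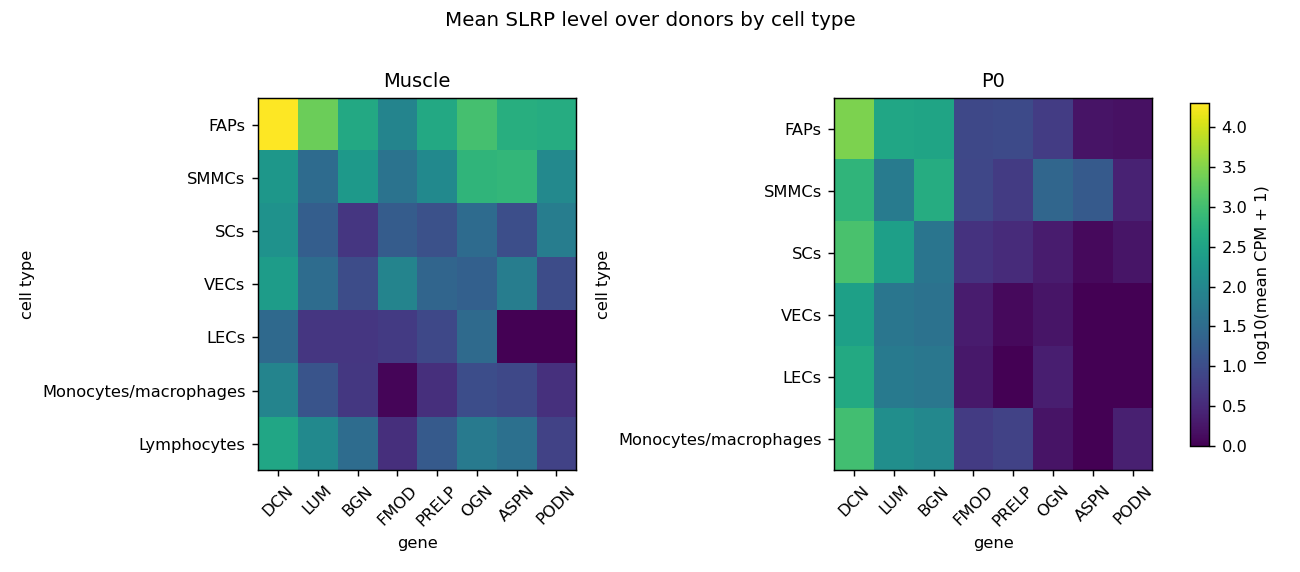
Mean level over donors of the 8 SLRP genes (columns) in each cell type (rows) in muscle and at P0, as log10 of mean CPM + 1 (colour). DCN is the brightest square of the FAP row in both panels, ASPN and OGN are bright in the SMMC row in muscle, and at P0 ASPN is seen in SMMCs (15.5 CPM) and is otherwise dark, as PODN is in every row.

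Outside FAPs, the mixture of SLRPs differed between cell types in muscle. SMMCs, which comprise vascular smooth muscle and related mural cells, held ASPN at 704 ± 194 CPM (lowest 535, median 625, highest 1185) and OGN at 658 ± 141 CPM in 10 donors, and the ASPN range overlapped that of FAPs. ASPN made up 35.3% and OGN 32.8% of the UMIs of the 8 genes in SMMCs, DCN only 7.66%, whereas in FAPs DCN made up 79.4%. For every 100 DCN UMIs SMMCs held 404 of ASPN and 409 of OGN, against 2.12 and 6.06 in FAPs. BGN, at 204 ± 68.5 CPM, lay at 51.2% of its FAP level in SMMCs. Among the FAP markers PDGFRA stood at 0.72% and DPT at 1.21% of its FAP level in SMMCs, while PDGFRB, which mural cells also express, stood at 262%.

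PODN, a member that binds collagen and has been tied to slower growth of smooth muscle cells, was the leading SLRP apart from DCN in muscle SCs, at 65.8 ± 27.9 CPM (31.1, median 61.0, highest 102) in 10 donors. A PODN UMI was found in 19.8% of 647 SCs (exact 95% interval 16.8 to 23.1%), against 2.13% of 188 lymphocytes, which should lack the gene (0.583 to 5.36%), at median depths of 3861 and 4407 UMIs. After thinning to 2000 UMIs per cell the shares were 10.8% and 1.08%. For DCN the shares were 16.2% in SCs, 15.0% in vascular endothelial cells (VECs) and 17.0% in lymphocytes. After thinning they were 7.65% (exact 95% interval 5.66 to 10.1%), 9.28% (7.39 to 11.5%) and 10.2% (6.26 to 15.5%), and 5.76% (3.69 to 8.52%) in monocytes and macrophages, intervals that overlapped. The 5 FAP markers summed to 307 CPM in lymphocytes (7.21 to 1636 over 10 donors), and the part of free RNA or FAP RNA in these DCN shares was not tested.

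FMOD, which binds collagen and directs its cross-linking, was as abundant in VECs as in FAPs, at 84.7 ± 30.5 CPM (47.0, median 81.1, highest 146) and 85.2 ± 39.1 CPM (31.2, median 81.8, highest 166), and the ranges of 10 donors overlapped. It was seen in 14.8% of 1166 VECs (12.8 to 16.9%) at a median depth of 2779 UMIs, and in 1.60% of lymphocytes (0.330 to 4.59%). In VECs 33.1 FMOD UMIs stood against 100 DCN UMIs, compared with 0.39 in FAPs. The 23 cells labelled tenocytes, the fibroblasts of tendon, came from 6 donors with fewer than 10 cells each, and all of them held FMOD, ASPN and DCN UMIs (exact lower bound 85.2%), whereas PODN was found in 43.5%. Summed over these 23 cells, FMOD stood at 2079 CPM, next to 74.4 CPM in all muscle FAPs summed. In the same sums tenocytes held OGN at 3326, PRELP at 1494, ASPN at 1473 and BGN at 1050 CPM, against 1148, 380, 402 and 350 CPM in FAPs. DCN stood at 20667 against 18945 CPM, whereas LUM (1318 against 2306 CPM) and PODN (120 against 449 CPM) were lower in the tenocyte sum. These sums have no spread over donors and were not tested.

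After 72 h of culture, 7 of the 8 genes were lower in FAPs at P0 than in muscle and BGN did not pass the test; 22.5% of the 9208 genes tested were called lower. The median log2FC was -4.36 over the 8 genes and 0.03 over all genes tested. Summed over the 8 genes, the level went from 24402 ± 1829 CPM in 10 donors to 3560 ± 365 CPM in 9, and the number of these genes with a UMI per thinned FAP went from 4.48 to 1.92.

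The class I members behaved unlike one another. DCN fell from 19369 to 2858 ± 331 CPM (lowest 2367, median 2851, highest 3451), a log2FC of -2.64 (SE 0.08, adjusted p = 1.71e-19, edgeR), and the 2 groups of donors did not overlap. ASPN fell from 490 to 0.67 ± 0.44 CPM (0.17, median 0.58, highest 1.41), 87 UMIs in all 9 donors, with a log2FC of -9.38 (SE 0.47). BGN, which binds collagen and can signal through Toll-like receptors, was at 329 ± 26.0 CPM (302, median 326, highest 387) against 398 ± 79.2 (210, median 413, highest 484), and its log2FC was -0.15 (SE 0.10, adjusted p = 0.16). Its ranges overlapped, although 8 of 9 donors had the lower value at P0. As a share of the UMIs of the 8 genes BGN was at 1.64% in muscle and at 9.34% at P0, while DCN kept close shares of 79.4% and 80.2%.

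All 3 class II members fell. LUM went to 351 ± 59.0 CPM (282, median 345, highest 482), a log2FC of -2.49 (SE 0.21), FMOD to 7.46 ± 1.25 CPM (5.04, median 7.90, highest 8.97), a log2FC of -3.29 (SE 0.20), and PRELP, which links basement membranes to collagen, to 8.24 ± 2.14 CPM (4.07, median 8.69, highest 10.7), a log2FC of -5.42 (SE 0.18). For each of them the highest donor at P0 lay below the lowest donor in muscle, a separation that was not counted over all genes. The ratio of LUM to DCN was nearly the same at both times, 12.2 and 12.4 LUM UMIs per 100 DCN UMIs.

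OGN and PODN fell most besides ASPN. OGN went from 1084 (522, median 1147, highest 1392) to 4.73 ± 2.70 CPM (2.34, median 3.46, highest 9.96), a log2FC of -7.72 (SE 0.33, adjusted p = 5.06e-14). PODN went from 451 (375, median 450.5, highest 521) to 0.58 ± 0.35 CPM (0.24, median 0.48, highest 1.45), a log2FC of -9.42 (SE 0.20, adjusted p = 1.73e-21), and its rank among genes went from 315 to 11474. Both groups were apart for each gene, and a PODN UMI was found in 82.7% of muscle FAPs but 1.27% of P0 FAPs, although the latter were sequenced to 24188 UMIs per cell in the median against 6213. The 5 FAP markers summed to 6771 CPM in muscle (5469 to 8067) and to 387 CPM at P0 (252 to 742) in the same cells; the part of this shift in the SLRP result was not tested.

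**Figure D2:**
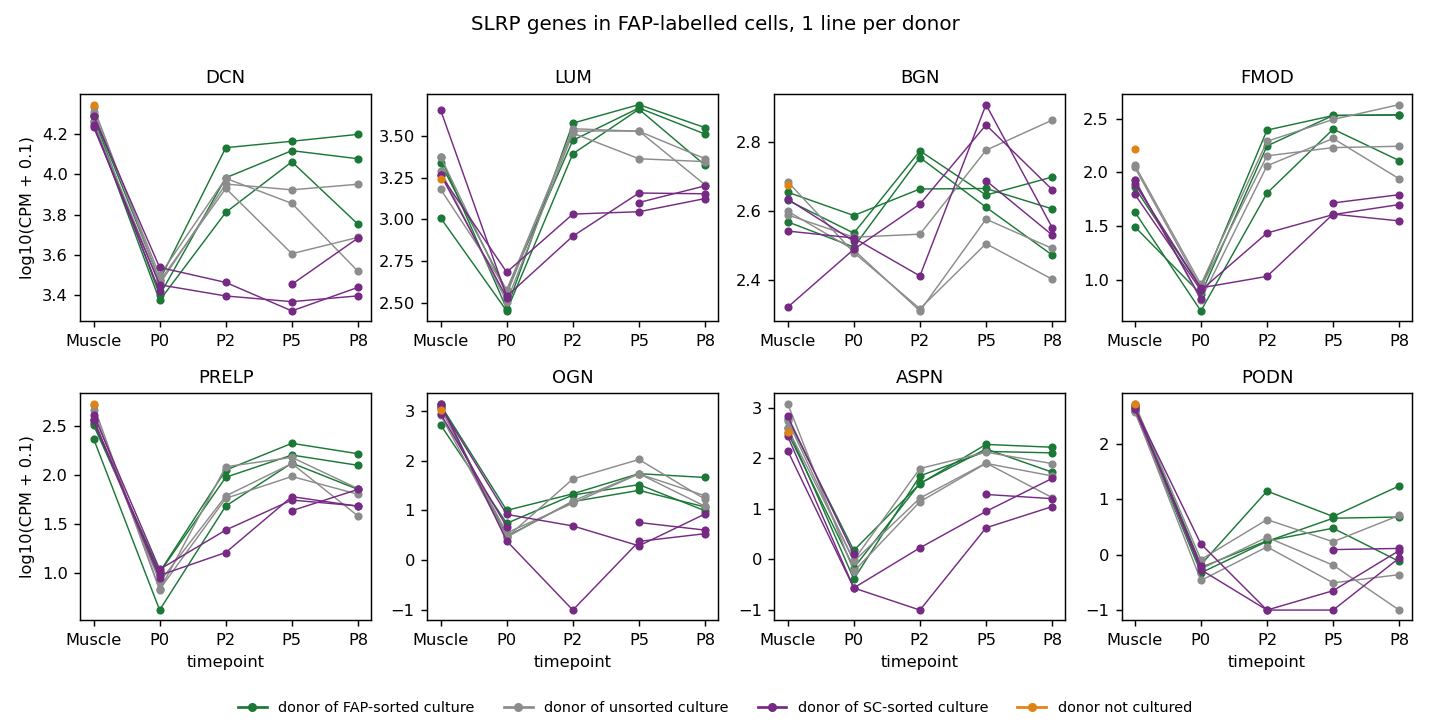
Level of each SLRP gene in FAP-labelled cells by timepoint, as log10 of CPM + 0.1, with 1 point per donor with at least 10 FAPs and lines joining the same donor; colours give the culture each donor entered at P2. All genes but BGN drop at P0, and FMOD, PRELP, OGN and ASPN rise again in culture, less so in FAPs of SC-sorted cultures (purple), while PODN in culture stays at or below 17.2 CPM.

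Genes of the wider pathway were drawn from lists of other SLRP-class genes, chain synthesis, partners and processing, and their counts stand against 22.5% of all genes tested called lower and 20.9% called higher in FAPs at P0. In FAPs at P0, 3 of 3 other SLRP-class genes tested were lower than in muscle: KERA (keratocan) at 0.047 against 50.5 CPM, ECM2 at 1.97 against 403 CPM and TSKU (tsukushi) at 42.7 against 192 CPM. Of the partners and receptors 17 of 18 tested were lower. These included all 10 collagens of the list, such as COL1A1 (684 against 3443 CPM), COL3A1 (1311 against 9825 CPM) and COL6A3 (29.4 against 299 CPM), and EGFR, a receptor that decorin binds (4.04 against 63.8 CPM). TLR2, a receptor for biglycan, was the one partner called higher, at 8.82 against 0.91 CPM.

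Of 15 tested genes of chondroitin and dermatan chain synthesis 1 was higher, 4 were lower and 10 were not called, a share of lower genes near that of all genes tested (22.5%). The lower genes included UST, which adds sulfate to uronic acid (4.68 against 72.3 CPM), and CHST7 (0.41 against 27.4 CPM), and CHSY1, a chain polymerase, was higher (48.6 against 24.5 CPM). For keratan sulfate 1 of 5 was higher and 3 were lower. Among processing and cleavage genes 5 of 9 were lower, including the procollagen C-proteinase enhancers PCOLCE (71.4 against 931 CPM) and PCOLCE2 (69.7 against 1077 CPM) and the aggrecanase ADAMTS5, which can cleave proteoglycans (11.4 against 103 CPM). MMP9, a gelatinase, was called higher, with 13.7 CPM at P0 and no UMI in muscle FAPs.

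In the other cell types the SLRP genes moved in both directions between muscle and P0. In SCs 4 of the 8 genes passed the filter for low counts: DCN, BGN and LUM were higher at P0 and PODN was lower, while 15.8% and 18.5% of 5221 genes were called in these directions. The other 4 were not tested and had lower means at P0. OGN stood at 1.16 against 30.7, FMOD at 3.27 against 16.9, PRELP at 2.45 against 10.6 and ASPN at 0.28 against 9.80 CPM. DCN stood at 1171 ± 299 CPM (765, median 1130, highest 1592) against 156 ± 209 (44.1, median 62.4, highest 721), a log2FC of 2.72 (SE 0.46, adjusted p = 3.29e-05, edgeR). LUM stood at 265 ± 81.6 CPM (167, median 266, highest 410) against 18.2 ± 29.5 (0, median 10.8, highest 99.9), a log2FC of 3.45 (SE 0.42). BGN was at 46.6 ± 32.4 against 3.78 ± 7.47 CPM with a log2FC of 3.04 (SE 0.66). BGN and LUM had 14 and 69 UMIs in 647 muscle SCs, against 1679 and 11714 in 2282 SCs at P0. Both passed the filter for low counts through P0, and PODN through muscle (173 against 26 UMIs), so the opposite call was hardly open to them. Every donor was higher at P0 for each of the 3 genes, and the ranges were apart.

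PODN in SCs went from 65.8 CPM to 0.75 ± 0.60 (0.14, median 0.48, highest 1.57), a log2FC of -6.62 (SE 0.37, adjusted p = 5.19e-14, edgeR), and the ranges were apart. With donor as a block 2 of the 8 genes were lower, OGN being the other. Thus PODN was lower at P0 both in SCs and in FAPs, whereas DCN and LUM were lower in FAPs and higher in SCs. In the same SCs the 5 SC markers summed to 1714 CPM in muscle (1078 to 2970) and 154 CPM at P0 (103 to 203). The 4 SMMC markers summed to 323 CPM (182 to 712) and 73.9 CPM (22.9 to 109). The part of these shifts in the SLRP result was not tested.

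SMMCs also showed both directions, with 2 of 6 tested genes higher and 4 lower, against 15.1% and 21.3% of 3454 genes. DCN was at 638 ± 187 CPM in 7 donors (412, median 594, highest 962) against 186 ± 275 CPM in 10 (38.3, median 114, highest 956), a log2FC of 1.77 (SE 0.51, adjusted p = 0.0057), and a single high muscle donor made the ranges overlap. With at least 30 cells per donor DCN did not pass (adjusted p = 0.075). BGN was at 451 ± 138 CPM (284, median 404, highest 710) against 204 ± 68.5 CPM (128, median 195, highest 366), a log2FC of 1.13 (SE 0.18), and was higher at P0 in 7 of 7 donors.

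ASPN, which together with OGN made up most SLRP UMIs of muscle SMMCs, fell to 15.5 ± 11.5 CPM (4.43, median 10.4, highest 36.8), a log2FC of -5.71 (SE 0.30), and OGN fell to 25.1 ± 16.9 CPM (6.65, median 22.1, highest 53.2), a log2FC of -4.86 (SE 0.28). PRELP and PODN were also lower, at 4.61 and 1.57 CPM against 109 and 104 CPM. For these 4 genes the P0 donors lay below all muscle donors, a separation that was not counted over all genes. At P0 SMMCs had the highest mean levels of ASPN, OGN, BGN and PODN among the 6 types with at least 10 cells in 2 or more donors. FAPs overlapped them for BGN, OGN and PODN, and PODN had only 8 UMIs in SMMCs at P0. In the SMMCs themselves the 4 SMMC markers summed to 11744 CPM in muscle (6901 to 21438) and 3158 CPM at P0 (1102 to 5573). The part of this shift in the SLRP result was not tested.

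In VECs 1 of 5 tested genes was higher and 2 were lower, against 15.6% and 19.6% of 5896 genes. FMOD fell from 84.7 to 1.12 ± 1.24 CPM (0, median 0.69, highest 3.07), a log2FC of -5.98 (SE 0.33, adjusted p = 7.18e-15, edgeR), without overlap. No ASPN UMI was found among 12243340 UMIs of VECs at P0, against 220 in muscle, so that ASPN was at least 219.5-fold lower when 3 UMIs are taken as the floor over the group. With donor as a block 1 of these genes, FMOD, was lower, and ASPN was not among the genes tested. BGN was at 40.9 ± 8.77 CPM against 9.09 ± 12.5 (log2FC 1.83, SE 0.36) and was higher in 9 of 9 donors. BGN passed the filter for low counts through P0 (471 UMIs, against 45 in muscle), and FMOD and ASPN through muscle, so the opposite call was hardly open to them. DCN (273 against 238 CPM) and LUM (46.8 against 32.7 CPM) did not pass the test. OGN (0.78 against 20.0 CPM), PRELP (0.30 against 24.3 CPM) and PODN (0 against 8.81 CPM) had lower means at P0 and were not tested in VECs. Lymphatic endothelial cells (LECs) had 4 muscle donors and 1 tested gene, DCN, at 401 ± 248 CPM (177, median 315, highest 891) against 28.6 ± 25.2 CPM, and it was called higher (log2FC 3.68, SE 0.95, adjusted p = 0.011, edgeR), against 14.8% of 3034 genes. Over all donors DCN had 14 UMIs in 81 muscle LECs and 655 in 168 LECs at P0. It thus passed the filter for low counts through P0, and a call of lower was hardly open to it.

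At P0 the levels outside FAPs can be read against FAP markers measured in the same cells. VECs held DCN at 9.55%, LUM at 13.3% and BGN at 12.4% of the FAP level, while the 5 FAP markers ranged from 7.65% (DPT) to 16.2% (MFAP5). LECs held DCN, LUM and BGN at 14.0, 16.2 and 15.4%, with the markers between 0 (SCARA5) and 21.2% (PDGFRB). Monocytes and macrophages held DCN at 35.0%, LUM at 38.2% and BGN at 30.2%, with the markers between 26.2% (SCARA5) and 44.1% (PDGFRA). In these 3 types DCN, LUM and BGN thus lay within the range of the FAP markers, and 89.9% of 831 VECs and 89.4% of 141 monocytes and macrophages held a DCN UMI at median depths of 12856 and 7568 UMIs. SCs held DCN at 41.0% and LUM at 75.5% of the FAP level, above the 5 markers, which ranged from 10.4% (DPT) to 26.9% (PDGFRB), while BGN stood at 14.2%, within that range. The summed FAP markers in SCs were at 81.7 CPM in muscle (31.3 to 158) and 75.6 CPM at P0 (41.7 to 115), all 5 detected. Within that sum PDGFRA went from 9.14 to 62.4, DPT from 6.54 to 7.45 and PDGFRB from 1.55 to 2.24 CPM. MFAP5 went from 58.0 to 2.26 and SCARA5 from 6.43 to 1.29 CPM. In muscle SCs the 5 markers lay between 0.48% (DPT) and 5.90% (PDGFRB) of their FAP level, and DCN, LUM and BGN at 0.81, 0.86 and 0.95%. In SMMCs the summed FAP markers were at 135 CPM (61.6 to 360) and 73.2 CPM (55.4 to 98.5), and in VECs at 96.8 CPM (31.0 to 183) and 32.1 CPM (20.3 to 43.4). In LECs they were at 24.3 CPM (15.0 to 36.0) and 50.2 CPM (12.2 to 161). PDGFRB was at 0 in muscle VECs and muscle LECs, and SCARA5 was at 0 in P0 LECs. In SMMCs DCN stood at 22.3%, LUM at 17.4% and BGN at 137% of the FAP level. Of the 5 markers 4 lay between 11.1% (PDGFRA) and 21.1% (SCARA5), and PDGFRB, which mural cells also express, stood at 328%. LUM lay within the range of those 4 markers, and DCN and BGN lay above it. The part of FAP-derived RNA in the calls outside FAPs was not tested.

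**Figure D3:**
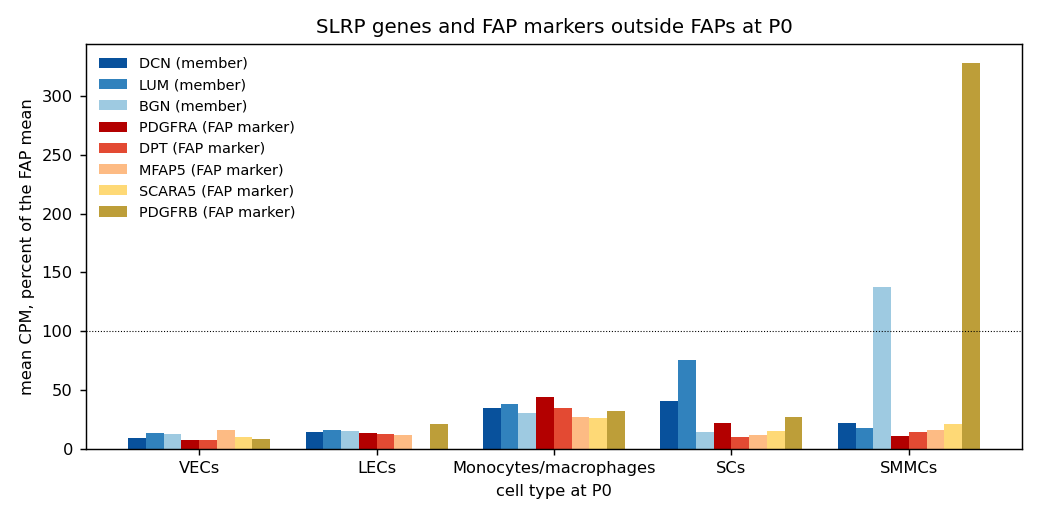
Mean level at P0 of 3 SLRP genes (blue) and 5 FAP markers (red to yellow) in 5 cell types, in percent of the mean level in FAPs (dotted line at 100). In VECs, LECs and monocytes/macrophages the bars of SLRP genes lie within the range of the markers, in SCs DCN and LUM reach 41.0% and 75.5% while the markers stay at or below 26.9%, and in SMMCs BGN (137%) and PDGFRB (328%) exceed their FAP levels.

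The change from muscle to P0 was compared between types within donors, as the difference of log2(CPM + 1) changes, by exact 2-sided permutation of the type within donors, adjusted over 24 tests that were chosen after the values were seen. In SCs the change of DCN was 3.48 and in FAPs -2.74, a difference of 6.22 ± 1.65 (SD) that was positive in 9 of 9 donors (exact permutation p = 0.003906, the smallest that 9 donors allow, adjusted p = 0.0072). For LUM the difference was 7.46 ± 2.37, positive in 9 of 9 donors with the same p. All 8 genes differed between SCs and FAPs at an adjusted p below 0.05, 6 did so between SMMCs and FAPs and 7 between VECs and FAPs. Only the 8 genes were tested in this way. No share of all genes stands beside these counts, so they cannot be read as a result about SLRPs as a set. FMOD in VECs was the one gene that changed further downwards than in FAPs, by -2.36 ± 1.07 in 9 of 9 donors. The 3 sets of tests share the FAP values, and genes that started low could fall only a little on this scale.

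In culture the FAPs of the unsorted and FAP-sorted cultures (6 donors) rose again, with 7 of 8 genes higher at P2 than at P0 and 13.6% of 11439 genes called higher. The median log2FC was 3.32 over the 8 genes and 0.04 over all genes. DCN went from 2803 ± 301 CPM (2367, median 2899, highest 3152) to 9431 ± 2313 CPM (6468, median 9239, highest 13534), a log2FC of 1.90 (SE 0.15, adjusted p = 2.02e-07, edgeR). LUM rose more, from 333 ± 41.4 CPM (282, median 337, highest 378) to 3231 ± 454 CPM (2470, median 3335, highest 3773), with a log2FC of 3.43 (SE 0.13). Both genes were higher at P2 in 6 of 6 donors, with no overlap. In the same cells the 4 SMMC markers summed to 57.3 CPM at P0 and 540 CPM at P2 in the FAP-sorted cultures (46.9 to 73.0 and 474 to 593) and to 44.1 and 783 CPM in the unsorted ones (33.8 to 58.9 and 532 to 1038), with RGS5 at 0 at both times. The 5 FAP markers summed to 322 and 1188 CPM in the FAP-sorted and to 365 and 606 CPM in the unsorted cultures. The part of these shifts in the SLRP result was not tested.

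ASPN rose from 0.75 ± 0.39 to 33.4 ± 18.3 CPM (13.8, median 31.6, highest 62.7), a log2FC of 5.61 (SE 0.48), FMOD from 7.39 ± 1.46 to 157 ± 64.3 CPM (log2FC 4.56, SE 0.31) and PRELP from 7.56 ± 2.29 to 82.0 ± 30.7 CPM (log2FC 3.58, SE 0.30). OGN rose from 4.56 ± 2.83 to 21.5 ± 10.9 CPM (log2FC 2.40, SE 0.39) and PODN from 0.47 ± 0.16 to 4.09 ± 4.88 CPM (log2FC 3.21, SE 0.69). Donor 8 raised the PODN mean at P2, at 13.8 CPM with the next donor at 4.16 CPM. For these 5 genes the ranges of P0 and P2 were apart, which was not counted over all genes. BGN was again the exception, at 397 ± 172 CPM (205, median 402, highest 595) against 332 ± 31.5 CPM, with a log2FC of 0.40 (SE 0.24, adjusted p = 0.15). In the wider pathway 5 of 5 tested SLRP-class genes (OMD, EPYC, ECM2, TSKU and PODNL1) and 12 of 19 partners and receptors were higher at P2, against the same 13.6% of all genes, with COL1A1 at 9064 against 591 CPM and CCN2, a matricellular protein, at 1004 against 80.8 CPM.

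Between P2 and P5, 2 of 8 genes rose, against 0.946% of 11731 genes. ASPN went to 128 ± 42.3 CPM (79.4, median 134, highest 188), a log2FC of 2.03 (SE 0.37, adjusted p = 0.0049), without overlap, and OGN to 54.6 ± 28.1 CPM (25.3, median 54.5, highest 106), a log2FC of 1.45 (SE 0.38, adjusted p = 0.022), in 6 of 6 donors with overlap. FMOD (log2FC 0.88, adjusted p = 0.049) and PRELP (log2FC 0.93, adjusted p = 0.026) passed the p threshold but not the fold threshold. From P5 to P8, OGN alone was called lower, against 0.494% of 10929 genes, at 19.3 ± 13.5 CPM (9.78, median 14.4, highest 45.9) and a log2FC of -1.63 (SE 0.43, adjusted p = 0.031), in 6 of 6 donors; without the filter for low counts its adjusted p was 0.057. With donor as a block 2 genes were lower, ASPN being the other (adjusted p = 0.047). LUM, at 2506 against 3860 CPM, had a log2FC of -0.75 (adjusted p = 0.039), under the fold threshold. In the same cells the 4 SMMC markers summed to 540, 316 and 963 CPM at P2, P5 and P8 in the FAP-sorted cultures (474 to 593, 218 to 466 and 516 to 1417) and to 783, 377 and 922 CPM in the unsorted ones (532 to 1038, 164 to 556 and 458 to 1344). The 5 FAP markers summed to 1188, 880 and 837 CPM (532 to 1849, 656 to 1022 and 294 to 1325) and to 606, 937 and 679 CPM (496 to 796, 729 to 1308 and 339 to 1311). The part of these markers in the changes after P2 was not tested.

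At P8 the FAPs of these 6 donors had not the same SLRP levels as in their muscle. FMOD was higher, against 16.4% of 8951 genes, at 251 ± 139 CPM (87.2, median 259, highest 428) against 76.6 ± 35.0 CPM (31.2, median 78.6, highest 117), with a log2FC of 1.94 (SE 0.46, adjusted p = 0.0030), in 6 of 6 donors; it did not pass (adjusted p = 0.064) when all sums were thinned to the smallest. DCN, ASPN, PRELP, OGN and PODN, 5 of the 8, were lower, against 17.7% of genes. DCN stood at 8403 ± 4752 CPM (3301, median 7283, highest 15756) against 19561 ± 1282 CPM (18162, median 19512, highest 21516), a log2FC of -1.05 (SE 0.33, adjusted p = 0.015), and it did not pass without the filter for low counts (log2FC -0.87, adjusted p = 0.059). OGN, with 19.3 against 1052 CPM (log2FC -5.58), and PODN, with 4.63 against 444 CPM (log2FC -6.48), stayed furthest from tissue. For these 5 genes the P8 donors lay below all muscle donors, a separation that was not counted over all genes. In the same cells the 5 FAP markers summed to 6401 CPM in muscle and 837 CPM at P8 in the FAP-sorted cultures (5469 to 7243 and 294 to 1325) and to 7166 and 679 CPM in the unsorted ones (6437 to 7812 and 339 to 1311). The 4 SMMC markers summed to 22.2 and 963 CPM (13.6 to 31.4 and 516 to 1417) and to 39.2 and 922 CPM (25.6 to 64.5 and 458 to 1344), with RGS5 at 0 at P8. The part of these shifts in the SLRP result was not tested. LUM (log2FC 0.57, adjusted p = 0.036) and BGN (log2FC 0.16, adjusted p = 0.54) were not called.

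**Figure D4:**
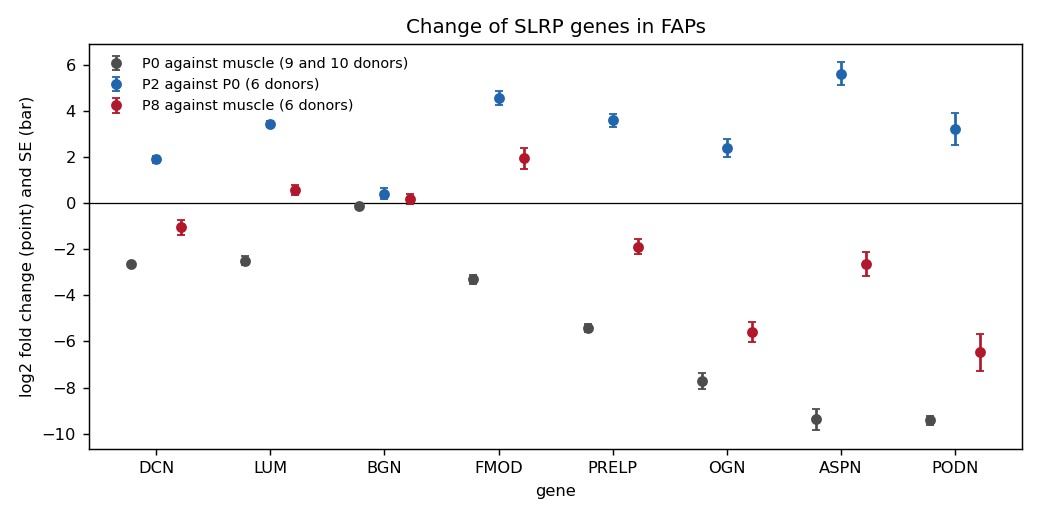
Log2FC (points) with SE (bars) of the 8 SLRP genes in FAPs for P0 against muscle (all donors), and for P2 against P0 and P8 against muscle (6 donors of unsorted and FAP-sorted cultures). Every gene but BGN has a grey point below -2 and a blue point near or above 2, and the red points run from FMOD at 1.94 to PODN at -6.48.

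SCs in culture were compared in the 6 donors of the unsorted and SC-sorted cultures. Between P0 and P2, 3 of 5 tested genes rose and 1 fell, against 5.49% and 3.24% of 9913 genes. LUM went from 287 ± 89.6 CPM (167, median 268, highest 410) to 920 ± 506 CPM (405, median 789, highest 1672), a log2FC of 1.70 (SE 0.37, adjusted p = 0.0043, edgeR), in 6 of 6 donors. FMOD rose from 3.12 ± 0.98 to 29.1 ± 26.1 CPM (log2FC 3.16, SE 0.65) and PRELP from 2.62 ± 1.61 to 12.9 ± 4.76 CPM (log2FC 2.51, SE 0.37), both without overlap. BGN fell from 51.3 ± 40.0 CPM (27.0, median 34.2, highest 130) to 16.4 ± 6.84 CPM (10.1, median 14.9, highest 26.2), a log2FC of -1.61 (SE 0.43, adjusted p = 0.014), without overlap. DCN, at 2293 against 1224 CPM, did not pass the test (adjusted p = 0.086). Summed over the 8 genes, SCs of the SC-sorted donors 5, 6 and 10 went from 1155, 1221 and 1238 to 1185, 2764 and 1754 CPM. Those of the unsorted donors 1, 2 and 9 went from 1997, 1839 and 1972 to 6254, 2700 and 5014 CPM. The 2 kinds of culture were not tested apart. In these SCs the 4 SMMC markers summed to 85.8 CPM at P0 and 734 CPM at P2 in the SC-sorted cultures (73.6 to 98.4 and 445 to 910) and to 52.5 and 355 CPM in the unsorted ones (22.9 to 109 and 267 to 454), with RGS5 at 0 at P2. The 5 FAP markers summed to 91.1 and 39.3 CPM in the SC-sorted (67.0 to 115 and 24.1 to 63.0) and to 69.7 and 100.1 CPM in the unsorted cultures (53.5 to 89.1 and 79.7 to 125), and the part of these markers in the result was not tested. Between P2 and P5 edgeR called 0 of 8 genes, against 0.111% of 10781 genes higher and 0.0835% lower, with 3 at an unadjusted p below 0.05. DESeq2 and edgeR with donor as a block each called 2 higher, ASPN and OGN, whose blocked log2FC were 1.78 (adjusted p = 0.0095) and 1.96 (adjusted p = 0.045). Both were higher at P5 in 6 of 6 donors.

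Whole cultures were compared as the sum of all cells of a donor, which needs no cell type labels; in such sums fewer cells of a type and less RNA per cell cannot be told apart. At P2, 7 of 8 genes were higher in FAP-sorted than in SC-sorted cultures, against 11.2% of 12199 genes. DCN was at 6151, 9227 and 13366 CPM in the FAP cultures of donors 4, 7 and 8, and at 789.5, 2113 and 1225 CPM in the SC cultures of donors 5, 6 and 10, a log2FC of 2.98 (SE 0.45, adjusted p = 0.0047, edgeR). LUM was at 2350, 2878 and 3734 CPM against 418, 624 and 516 CPM (log2FC 2.70, SE 0.24). BGN and ASPN had the largest log2FC of the 8 genes. BGN was at 520, 441 and 585 CPM against 18.0, 13.1 and 13.5 CPM, a log2FC of 5.28 (SE 0.20, adjusted p = 0.00017), and ASPN at 29.2, 29.6 and 43.9 CPM against 0.62, 0.59 and 0.56 CPM, a log2FC of 6.02 (SE 0.25, adjusted p = 0.00018). FMOD, PRELP and OGN had log2FC of 4.03, 3.10 and 3.48. PODN, at 1.62, 1.69 and 13.8 CPM against 3.64, 4.60 and 4.92 CPM, overlapped and did not pass the test (log2FC 0.53, SE 0.84); without donor 8 it was called lower in the FAP cultures (log2FC -1.23, adjusted p = 0.018).

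At P5, 6 of 8 genes were higher in FAP-sorted cultures, against 9.06% of 12212 genes. DCN stood at 11481, 13034 and 14539 CPM against 1663, 1735 and 1317 CPM, a log2FC of 3.28 (SE 0.15). BGN, at 407, 461 and 442 CPM against 438, 38.1 and 79.8 CPM, was not called (log2FC 1.45, SE 0.87), but without donor 5 its log2FC was 3.12 (adjusted p = 0.0014). In the SC culture of donor 5, 57.0% of cells were labelled FAPs at P5, against 2.04% and 6.10% in those of donors 6 and 10. PODN had a log2FC of 0.86 (adjusted p = 0.048), under the fold threshold, and was called higher without donor 4 (1.06) or donor 10 (1.07).

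At P8 the SC-sorted cultures of donors 5, 6 and 10 held 96.7, 95.6 and 82.7% FAP-labelled cells. LUM was the 1 gene of 7 tested that was called higher in FAP-sorted cultures, against 0.842% of 9974 genes, at 2110, 3242 and 3537 CPM against 1335, 1580 and 1350 CPM (log2FC 1.13, SE 0.21, adjusted p = 0.044). DESeq2 called 6, and edgeR 0 to 5 when 1 donor was left out: 5 without donor 4 and 0, LUM included, without any other donor. DCN was at 5646, 11891 and 15675 CPM against 2750, 4731 and 2274 CPM (log2FC 1.85, SE 0.45, adjusted p = 0.11), and BGN at 298, 406 and 499 CPM against 456, 329 and 304 CPM (log2FC 0.20, SE 0.26). The 2 cultures did not overlap for DCN and overlapped for BGN.

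**Figure D5:**
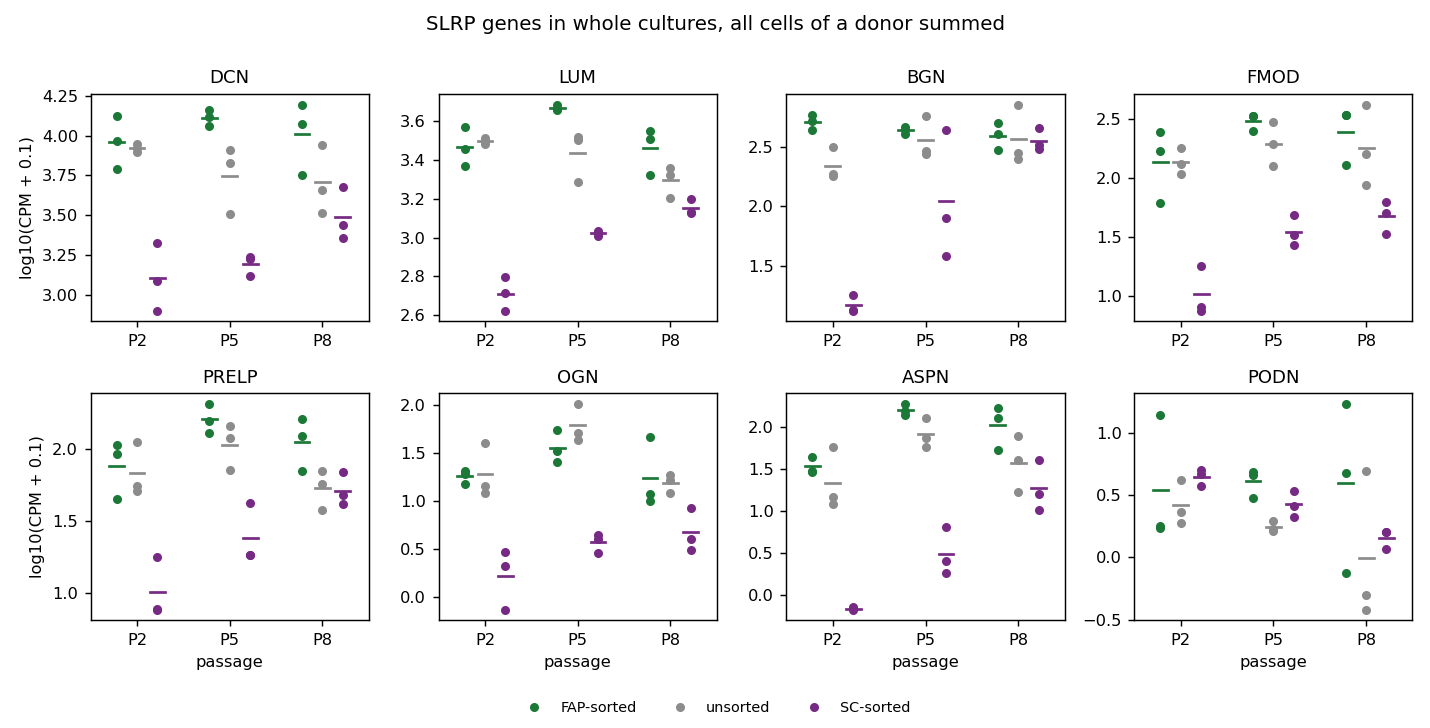
Level of each SLRP gene in whole cultures at P2, P5 and P8, as log10 of CPM + 0.1, with 1 point per donor and a bar at the mean of the log values of 3 donors; green is FAP-sorted, grey unsorted and purple SC-sorted. The purple points lie below the green ones for 7 genes at P2, and by P8 those of BGN have reached the green range.

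The FAP-labelled cells that grew in SC-sorted cultures carried another SLRP profile than FAPs of FAP-sorted cultures. At P5, 7 of 8 genes were lower in them, against 7.90% of 11517 genes. DCN stood at 2101, 2846 and 2335 CPM in donors 5, 6 and 10, from 593, 31 and 70 cells, and at 11519, 13082 and 14564 CPM in donors 4, 7 and 8, a log2FC of -2.64 (SE 0.12, adjusted p = 1.10e-05, edgeR). LUM was at 1110, 1261 and 1438 CPM against 4572, 4653 and 4874 CPM (log2FC -2.09, SE 0.10), ASPN at 8.83, 19.2 and 4.13 CPM against 153, 188 and 137 CPM (log2FC -4.34, SE 0.34) and OGN at 1.85, 5.64 and 2.29 CPM against 32.97, 54.8 and 25.3 CPM (log2FC -4.28, SE 0.50). FMOD, PRELP and PODN had log2FC of -3.04, -1.82 and -4.74. PODN was near the floor in FAPs at P5, at 0 to 4.76 CPM over 9 donors, with 378 UMIs in all.

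BGN did not share that direction, with 707, 488 and 809 CPM in the SC cultures above 409, 463 and 443 CPM in the FAP cultures, a log2FC of 0.41 (SE 0.18) that did not pass the test (adjusted p = 0.11). Of 19 tested partners and receptors 9 were lower, 1 was higher and 9 were not called, against 7.90% of genes lower and 7.99% higher. The lower ones included COL1A1 (4089 against 19854 CPM) and COL3A1 (2085 against 13084 CPM), and the higher one was MET, a receptor for decorin, at 3.75 against 0.88 CPM. Of 8 tested processing and cleavage genes 4 were lower (PCOLCE, ADAMTS1, ADAMTS4 and ADAMTS5), 3 were not called and 1 was higher, PCOLCE2, at 199 against 64.5 CPM. The 5 SC markers summed to 36.4 CPM (7.70 to 76.1) in FAPs of the SC cultures and 12.2 CPM (11.3 to 13.8) in those of the FAP cultures, with PAX7 and CHRDL2 at 0 in the former, and the 5 FAP markers summed to 408 CPM (356 to 456) and 880 CPM (656 to 1022). The 4 SMMC markers summed to 684 CPM (351 to 974) and 316 CPM (218 to 466), with RGS5 at 0 in both; the part of all these markers in the result was not tested. At P8 DCN in these cells was at 2750, 4824 and 2495 CPM against 5649, 11928 and 15756 CPM, values that were not tested.

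No SLRP gene was called by edgeR between FAPs of unsorted and of FAP-sorted cultures at P2. The count was 0 of 8 genes, against 0.0170% of 11786 genes higher and 0.00% lower, with 1 at an unadjusted p below 0.05. That gene was BGN, at 205, 342 and 208 CPM in donors 1, 2 and 9 against 569, 461 and 595 CPM in donors 4, 7 and 8, a log2FC of -1.02 (SE 0.24, adjusted p = 0.32), and DESeq2 called it lower (adjusted p = 0.0067). DCN was at 8505, 8939 and 9540 CPM in the unsorted cultures, inside the range of the FAP cultures (6468 to 13534), and its log2FC was -0.07 (SE 0.27).

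No SLRP gene was called between FAPs of calves and adults, at the spread of 5 donors each. In muscle edgeR called 0 of 8 genes, against 0.568% of 6158 genes higher in calves and 0.747% lower, with 0 at an unadjusted p below 0.05 and 0 by DESeq2. ASPN had the largest log2FC in size, -0.76 (SE 0.45), with 347 ± 173 CPM in calves (141 to 610) and 632 ± 344 CPM in adults (333 to 1197). DCN was at 18482 ± 964 and 20256 ± 1788 CPM, with overlapping ranges. At P0, with 5 calves and 4 adults, 0 of 7 tested genes were called, against 0.00% of 11466 genes in each direction, again with 0 at an unadjusted p below 0.05 and 0 by DESeq2; OGN, at 5.75 ± 3.34 and 3.45 ± 0.83 CPM, had the largest log2FC, 0.73 (SE 0.43).

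From P2 onwards the mean mixture in FAPs held less DCN and more LUM than in muscle. These means cover 10 donors in muscle and 8 or 9 later. They include FAPs of SC-sorted cultures, which carried another SLRP profile at P5. LUM made up 8.74 ± 3.78% of the UMIs of the 8 genes in muscle and 9.85 ± 1.05% at P0, and 24.2, 27.6 and 24.9% at P2, P5 and P8, while DCN went from 79.4 and 80.2% to 69.5, 61.5 and 66.7%. At P5 the DCN share ran from 49.8 to 70.9% over donors. BGN made up 1.64% in muscle, 9.34% at P0 and 4.38, 7.21 and 5.11% at P2, P5 and P8, with donors at P5 from 2.16 to 17.6%. OGN made up 4.42% in muscle and 0.13 to 0.32% later, and PODN 1.86% and 0.012 to 0.025%. Across 19 groups of cell type and timepoint, which share libraries and free RNA, the levels of LUM and DCN were most alike, with a Pearson r of 0.96 for log2(mean CPM + 1), followed by ASPN and OGN (0.87) and FMOD and PRELP (0.86). The members of each of these pairs lie near each other in the genome. ASPN and PRELP (0.84) and OGN and PODN (0.79) came next and stand in different rows of genes. The part of position in these correlations was not tested. Among 10606 genes searched, the most alike to DCN apart from LUM were SERPINF1 (0.96) and PDGFRA (0.94), and LUM had SERPINF1 (0.96) and ENTPD2 (0.95). BGN was nearest to PRRX2 (0.95) and CD248 (0.93), FMOD to SPARC (0.90), PRELP to ADAM33 (0.90), OGN to CBLB (0.90), ASPN to OGN (0.87) and PODN to PER2 (0.90).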

How the data were processed

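Single-cell RNA of 5 pooled libraries was analysed. Per the labels and methods, the authors aligned the reads with Cell Ranger 6.0.1 to the ARS-UCD1.2 assembly and deposited UMI counts per gene and cell, without normalization, with a table of the cells that passed their filters (within 3 median absolute deviations), the donor of each cell by genotype and a cell type; 12 other columns of that table were not used. No doublet caller was run here; the donor assignment and filters of the authors were kept. Age class and sex came from the donor table of the study.

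The 8 genes and the gene lists were chosen with earlier results of these data known. All 8 were named throughout; other genes came from lists of other SLRP-class genes, chain synthesis, partners and processing, and as the 3 genes most alike to each member. For each donor, the counts of all cells of 1 type were added up (at least 10 cells) and scaled to a total of 1000000 UMIs (CPM). Tests used edgeR 4.0.16 (TMM, filterByExpr, robust quasi-likelihood F test) in R 4.3.3 across all genes, checked on simulated counts; alternatives were RLE factors, DESeq2 1.42.0, no filter, at least 30 cells, thinning, donor as a block, sex as a covariate for calf against adult, and leaving out donors. Summaries used Python 3.11.15, pandas 2.3.3 and scipy 1.17.1. Shares of cells have exact (Clopper-Pearson) 95% intervals, which cover counting error only; the floor was 3 UMIs.

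Since the same animals were sampled at successive timepoints, donor numbers pair the sums. The correlation of paired deviations was -0.02 to 0.16 in FAPs between muscle and P0, 0.23 to 0.39 between P0 and P2 and 0.41 to 0.65 between P5 and P8. Total UMIs per library ran from 20977722 to 252316585.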

Additional observations from a re-analysis of the deposited data

Results flagged for a closer look

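In 25 of 139 groups of 4 to 10 donors 1 donor lay apart from the rest by Dixon's test at 95%. That test gives about 1 of 20 by chance only for independent groups of normally distributed values. The groups here share values and CPM were not put on a log scale, so the count cannot be read against that rate. In muscle FAPs the outlying values were the lowest BGN (210 CPM, donor 5) and the highest ASPN (1197 CPM, donor 1, also among 6 donors) and LUM (4523 CPM, donor 10), and among the 5 calves the lowest OGN (522 CPM, donor 4). In FAPs at P0 they were the highest BGN (387 CPM, donor 7), LUM (482 CPM, donor 5), PODN (1.45 CPM, donor 5) and, among 6 donors, OGN (9.96 CPM, donor 7). In cultured FAPs OGN was high in donor 2 at P2 (42.9 CPM) and P5 (106 CPM) and in donor 7 at P8 (45.9 CPM), and PODN was high in donor 8 at P2 (13.8 CPM) and P8 (17.2 CPM).

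In SCs donor 6 had the highest DCN (721 CPM) and LUM (99.9 CPM) in muscle, donor 2 the highest BGN at P0 (130 CPM, among 9 and among 6 donors) and donor 9 the highest ASPN at P2 (2.11 CPM). In muscle VECs BGN was high in donor 7 (39.8 CPM) and ASPN in donor 8 (187 CPM). In SMMCs DCN was high in donor 5 (956 CPM), BGN in donor 9 (366 CPM) and ASPN in donor 3 (1185 CPM) in muscle, and PODN in donor 8 (8.87 CPM) at P0.

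The change from muscle to P0 differed from that in FAPs in 21 of 24 tests, a count that includes genes already low in the other type in muscle. Such genes, as ASPN in SCs (9.80 CPM) and PODN in VECs (8.81 CPM), could fall only a little on this scale. Their differences were thus partly set by the starting level. Only SLRP genes were tested in this way, so no share of all genes stands beside the 21 of 24. On the log2(CPM + 1) scale the change in SCs exceeded that in FAPs by 6.22 for DCN, 4.46 for BGN, 6.87 for ASPN, 7.46 for LUM, 1.60 for FMOD, 4.37 for PRELP, 3.66 for OGN and 3.03 for PODN. In SMMCs the excess was 5.61 for DCN, 1.45 for BGN, 2.37 for ASPN, 5.71 for LUM, 2.81 for OGN and 2.34 for PODN. In VECs it was 3.55 for DCN, 3.28 for BGN, 2.53 for ASPN, 3.63 for LUM, 4.72 for OGN and 5.27 for PODN, and for FMOD -2.36.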

How the results depend on the processing

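Of 977 fold changes of the 8 genes under alternatives, 950 stayed on the same side of the call, 9 lost a call, 17 gained one and 1 reversed; 37 that were uncalled in both had another sign, among them BGN in FAPs at P0 without the filter for low counts (log2FC 0.13 against -0.15). None of 296 mean levels moved by more than the SD, whereas 141 of 192 shares of cells fell outside their interval when cells were thinned to 2000 UMIs. Without the filter, 5 genes were lower at P0 in SCs, 5 in VECs and 2 in LECs, 3 were higher in LECs, and 0 were lower in FAPs at P8 against P5. With at least 30 cells, 2 were lower in SCs and 1 higher in SMMCs, and LECs could not be fitted. Thinned to the smallest sum, where fewer genes were tested, 1 was higher and 0 lower in SCs, 0 higher and 1 lower in VECs, 2 lower in SMMCs and 0 higher in FAPs at P8 against muscle. With donor as a replicate block, 2 were lower in SCs and 1 in VECs at P0, 2 lower in FAPs at P8 against P5 and 2 higher in SCs at P5 against P2; the block changed no other count of calls by over 1.5 times. DESeq2 called 2 higher in SCs at P5 against P2, 6 higher in FAP-sorted cultures at P8 and 1 lower in FAPs of unsorted cultures at P2. Leaving out 1 donor, the number higher at P0 in LECs was 1 to 2, that higher in FAP-sorted cultures at P8 was 0 to 5, and that lower in FAP-sorted cultures at P2 was 0 to 1, where PODN had log2FC from -1.23, reversed without donor 8, to 0.99. Apart from the loss of genes by thinning, the cause was not tested. In muscle the median cell held 4184 UMIs, which limits what could be detected of FMOD, PODN and PRELP outside FAPs.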

Other observations

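Whole cultures of unsorted cells held DCN at 7942, 8335 and 8844 CPM at P2, 3233, 8132 and 6697 CPM at P5 and 4542, 8792 and 3284 CPM at P8 in donors 1, 2 and 9. Their share of FAP-labelled cells was 75.9, 88.9 and 81.0% at P2, 55.8, 94.9 and 84.3% at P5 and 87.8, 97.2 and 92.5% at P8. LUM in these cultures was at 1933, 3303 and 3199 CPM at P5, and the lowest value of both genes at P5 came from donor 1.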
